A study of Pyrocoelia pectoralis with 6 samples.

Results

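The genes described here are RI129_003461, RI129_003462, RI129_003463, RI129_003464, RI129_003466 and RI129_003467 of the firefly Pyrocoelia pectoralis, 6 of 12533 genes in the deposited expression table. All carry the description luciferin 4-monooxygenase, an enzyme name of firefly luciferase. They were chosen by identifier, as neighbours of RI129_003463, a gene already known to be far higher in the luminous organ of these libraries. Their difference between organs was therefore part of the choice and is described without a test. Messenger RNA was sequenced from the luminous organ and from the non-luminous organ of male animals, with 3 libraries per organ. The labels give no age, no strain, no treatment and no body position, and leave unsaid whether replicates stand for separate animals or pools. P-values for other genes therefore describe how far these libraries scatter, which may be technical. Luciferase is the defining marker of a luminous organ, and the luciferase-like genes are the subject here, so the tissue label has no independent check among them.

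Firefly luciferase joins luciferin to AMP from ATP and then oxidises it with molecular oxygen, and the decay of the excited product gives light. The enzyme sits in peroxisomes of the lantern cells. It belongs to the adenylate-forming enzymes and is closely related to fatty acyl-CoA synthetases, which use the same first step to activate fatty acids. In Photinus pyralis the luciferase gene lies in a tandem array of related acyl-CoA synthetase genes. A description as luciferase, which rests on similarity, therefore does not say which reaction a gene product carries out.

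The 6 genes lie in an unbroken run of 10 identifiers with that description, RI129_003460 to RI129_003469. The other 4, RI129_003460, RI129_003465, RI129_003468 and RI129_003469, were not among the chosen genes. Gene positions are not used here, so the run is one of identifiers and not of measured distance. In the table, 31 genes carry the description. The protein named as closest match was that of Photinus pyralis for RI129_003463, of Aquatica lateralis for RI129_003466, and of Photuris pensylvanica for the other 4. Over all 31 genes, Photuris pensylvanica was named for 16 genes, Aquatica lateralis for 6, Luciola cruciata for 5 and Photinus pyralis for 4. The Gene Ontology terms of all 6 include peroxisome, ATP binding and bioluminescence, and only RI129_003463 among them also carries chaperone binding. These terms were transferred with the match.

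Coding lengths were recovered from the steps between low values as described under processing. Those steps fix only the product of length and library total, so ratios between lengths are firmer than the lengths themselves, and by these RI129_003462 stood apart. RI129_003463 had 1647 bases, taking lengths as multiples of 3. RI129_003464 and RI129_003466 had 1635 bases each, RI129_003467 had 1626 and RI129_003461 had 1527. RI129_003462 had 3345 bases, close to the summed length of a pair of its neighbours. Of the genes of the run that were not chosen, RI129_003469 was as long, at 3282 bases, and the others had 1617 to 1638 bases. Within the run 8 of 10 genes had between 1500 and 1700 bases, against 6 of 20 luciferase-like genes with a recovered length elsewhere. Whether a long model joins neighbouring genes was not tested. FPKM (reads scaled to gene length and to the library total) is per length, and levels of these genes are set beside each other on that scale. Such a comparison takes the gene models as right and reads shared by similar copies as evenly handled, which was not tested.

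RI129_003463, the match to the Photinus pyralis luciferase, was high in every luminous library and near the lower end of the scale in every non-luminous one. It stood at 532, 374 and 292 FPKM in luminous replicates 1, 2 and 3, and at 0.322, 0.595 and 0.505 FPKM in non-luminous replicates 1, 2 and 3. The groups lie far apart and the luminous values differ among themselves by less than the gap between organs. The means were 399 ± 122 FPKM and 0.474 ± 0.139 FPKM (SD, n = 3), a ratio of 842.5, and the log2(FPKM + 1) difference, luminous minus non-luminous, was 8.05 (SE 0.22). The non-luminous values rest on 10, 18 and 15 reads, against 17545, 12588 and 9111 reads in the luminous libraries. The exact Poisson 95% intervals of those 10, 18 and 15 reads run from 4.8 to 18.4, 10.7 to 28.4 and 8.4 to 24.7 reads. They overlap, and a difference among the non-luminous libraries was not tested. Intervals cover counting error only. By mean FPKM the gene ranked 268 of 12533 genes in the luminous organ and 10517 in the non-luminous organ.

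RI129_003467, the most abundant of the 6 in the non-luminous organ, had the opposite direction. It stood at 7.83, 23.7 and 8.57 FPKM in the luminous libraries and at 34.2, 42.0 and 43.0 FPKM in the non-luminous libraries. Every luminous value lies below every non-luminous one, and luminous replicate 2 stands above the other luminous libraries, with 786 reads against 255 and 264. The means were 13.4 ± 8.94 and 39.7 ± 4.77 FPKM (SD, n = 3), a log2 difference of -1.67 (SE 0.37). Its coefficient of variation was 66.96% among luminous libraries, the highest of the 6 genes, and 12.02% among non-luminous libraries.

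RI129_003466, the match to Aquatica lateralis, stood at 5.49, 7.88 and 6.97 FPKM in the luminous libraries and at 16.4, 15.2 and 20.2 FPKM in the non-luminous libraries. The groups do not overlap, with a highest luminous value of 7.88 FPKM and a lowest non-luminous value of 15.2 FPKM. The means were 6.78 ± 1.20 and 17.3 ± 2.64 FPKM (SD, n = 3), 2.55 times as high in the non-luminous organ, with a log2 difference of -1.23 (SE 0.19).

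RI129_003461, the shortest of the 6, stood at 1.27, 2.66 and 0.760 FPKM in the luminous libraries and at 3.37, 4.24 and 6.50 FPKM in the non-luminous libraries. The groups do not overlap, though luminous replicate 2 and non-luminous replicate 1 come close. The luminous values rest on 39, 83 and 22 reads, and the log2 difference was -1.18 (SE 0.34). In these 3 genes lower in the luminous libraries, the highest luminous value was that of replicate 2.

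RI129_003462 and RI129_003464, the identifiers on either side of RI129_003463, had overlapping levels in both organs. RI129_003462, the long model, stood at 6.34, 4.06 and 3.39 FPKM in the luminous libraries and at 5.07, 4.82 and 4.47 FPKM in the non-luminous libraries. Its luminous values enclose the non-luminous ones, and the means were 4.596 ± 1.55 and 4.79 ± 0.300 FPKM (SD, n = 3), a log2 difference of -0.08 (SE 0.24). That difference was 0.16 after quantile normalization and 0.07 without luminous replicate 3. RI129_003464 stood at 6.65, 5.45 and 5.04 FPKM in the luminous libraries and at 4.80, 5.73 and 4.98 FPKM in the non-luminous libraries. The groups overlap, and the log2 difference was 0.12 (SE 0.18). In the luminous libraries both genes had the order of RI129_003463, highest in replicate 1 and lowest in replicate 3. The handling of reads shared by similar copies is not given in the sources used here, and its part in that order was not tested.

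**Figure D1:**
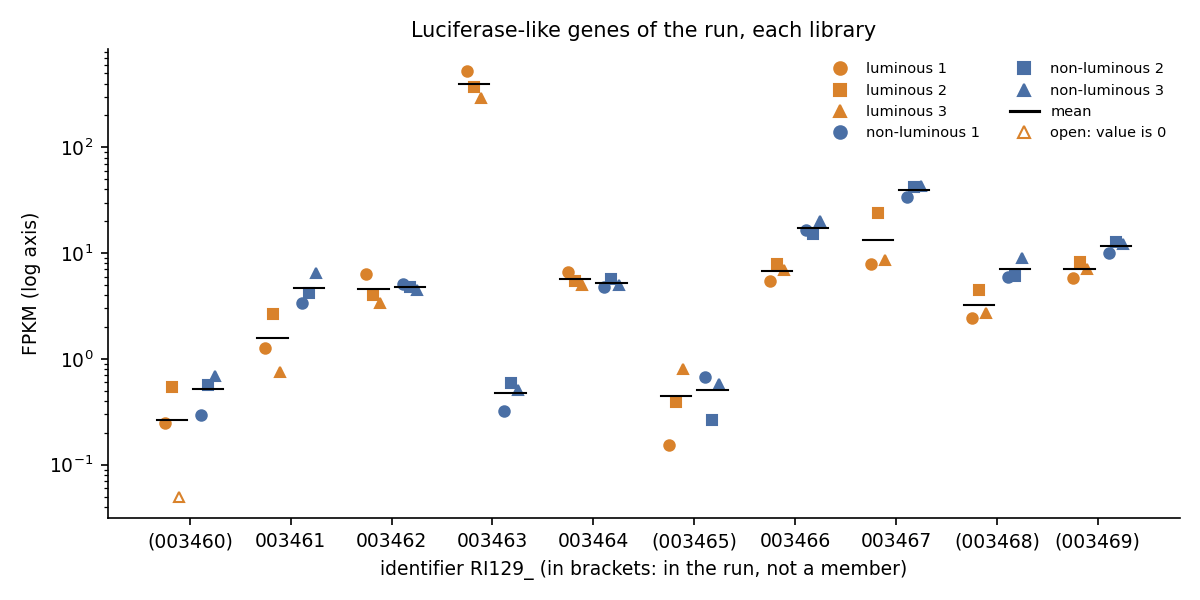
FPKM on a log axis for the 10 luciferase-like genes of the run in each library, luminous in orange and non-luminous in blue, with a black bar at the mean of 3 libraries and identifiers in brackets for genes that were not chosen; the open triangle marks a value of 0, drawn at the foot of the axis. RI129_003463 is the gene with luminous values of 292 to 532 FPKM and non-luminous values under 1 FPKM, while RI129_003466 and RI129_003467 have every luminous value below every non-luminous one.

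In the order of levels, the luminous organ had RI129_003463 first, followed by RI129_003467, RI129_003466, RI129_003464, RI129_003462 and RI129_003461. From RI129_003467 to RI129_003462 each gene's library values overlapped those of the next, so that part of the order is not set beyond the spread. RI129_003463 at the top and RI129_003461 at the bottom did not overlap their neighbours. The non-luminous organ had RI129_003467 first, then RI129_003466, both apart from their neighbours. RI129_003464, RI129_003462 and RI129_003461 followed at 5.17 ± 0.490, 4.79 ± 0.300 and 4.70 ± 1.62 FPKM (SD, n = 3) with overlapping values, and RI129_003463 was last, apart from all of them. The groups did not overlap for 4 of the 6 genes, with the luminous side higher for 1 and lower for 3. Over the 9863 genes tested the groups did not overlap for 46.1%, and nothing is read from the count of 4, since the genes were chosen with these values known. All 6 passed the filter of a mean of at least 1 FPKM.

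The change in RI129_003463 turned the make-up of the run over. It held 93.6%, 86.7% and 89.2% of the summed FPKM of the 10 genes in luminous replicates 1, 2 and 3, and 0.397%, 0.644% and 0.494% in the non-luminous replicates. RI129_003467 held 1.38%, 5.49% and 2.62% in the luminous libraries and 42.2%, 45.4% and 42.0% in the non-luminous libraries. Without RI129_003463, the other 9 genes together stood at 36.3, 57.3 and 35.3 FPKM in the luminous libraries and at 80.8, 91.8 and 102 FPKM in the non-luminous libraries. The remainder of the run was therefore lower in each luminous library than in any non-luminous one.

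**Figure D2:**
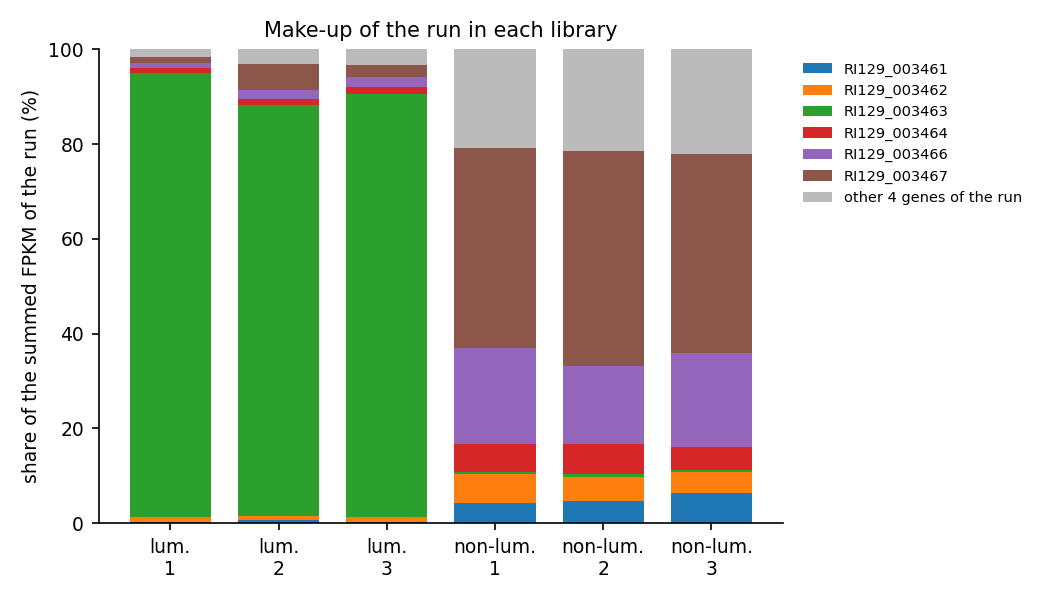
Share of the summed FPKM of the 10 luciferase-like genes of the run in each library, in percent, with lum. for luminous, non-lum. for non-luminous, and the 4 genes that were not chosen joined in grey. RI129_003463 takes 86.7% to 93.6% of each luminous library and under 1% of each non-luminous one, where RI129_003467 takes 42.0% to 45.4%.

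The genes of the run that were not chosen showed no level like that of RI129_003463. RI129_003460 and RI129_003465 stayed under the filter, with at most 0.686 and 0.806 FPKM in any library, and overlapping groups. RI129_003468 stood at 2.46, 4.44 and 2.73 FPKM in the luminous libraries against 5.98, 6.14 and 9.05 FPKM, and fell by 0.95 on the log2 scale (SE 0.26, limma adjusted p = 0.0324). RI129_003469 stood at 5.85, 8.16 and 7.01 FPKM against 9.94, 12.9 and 12.2 FPKM, and fell by 0.66 (SE 0.18, limma adjusted p = 0.0349). Both were highest among luminous libraries in replicate 2. Leaving out luminous replicate 1, luminous replicate 3 or any non-luminous replicate ended both calls, as did testing with no filter, quantile normalization and a fit with the replicate number as a block (adjusted p = 0.0675 and 0.0513 in limma). Median-of-ratios rescaling also ended that of RI129_003469. Over the alternatives adjusted p ran from 0.0184 to 0.12 for RI129_003468 and from 0.0207 to 0.119 for RI129_003469.

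Outside the run, genes with nearby identifiers were called in both directions. Of the 27 identifiers from RI129_003451 to RI129_003477, 17 were not luciferase-like, 12 of these were tested, with 1 called higher and 3 called lower, where 9.63% of all genes tested were higher and 17.0% lower. Their median log2 difference was -0.17, against -0.09 over all genes tested. RI129_003453, which has no description, stood at 2.59, 3.89 and 5.97 FPKM against 1.62, 1.22 and 0.848 FPKM, and rose by 1.17 (SE 0.30, limma adjusted p = 0.0275). On the low side of the run, RI129_003458 and RI129_003459, both described as microsomal glutathione S-transferase 1, a membrane enzyme of detoxification, fell by 0.48 and 0.88 (SE 0.11 and 0.17, limma adjusted p = 0.02 and 0.0105). Further on, GluProRS (RI129_003475), a transfer RNA synthetase, fell by 0.42 (SE 0.11, limma adjusted p = 0.0339). BPNT1 (RI129_003470), a nucleotidase of sulfur metabolism that directly follows the run and was picked after its values were seen, stood at 17.1 ± 0.828 and 17.7 ± 0.637 FPKM (SD, n = 3).

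Of these 4 calls none stood when non-luminous replicate 3 was left out, and with luminous replicate 3 or non-luminous replicates 1 or 2 left out only RI129_003459 was still called. RI129_003453 was also lost without luminous replicate 2, and GluProRS without luminous replicate 1, after both rescalings and with no trend. With the replicate number as a block RI129_003453, RI129_003458 and GluProRS were lost (adjusted p = 0.0743, 0.0567 and 0.0602 in limma). Their adjusted p ranged over the alternatives from 0.0126 to 0.101 for RI129_003453, 0.0204 to 0.0805 for RI129_003458, 0.00351 to 0.0501 for RI129_003459 and 0.0284 to 0.114 for GluProRS.

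**Figure D3:**
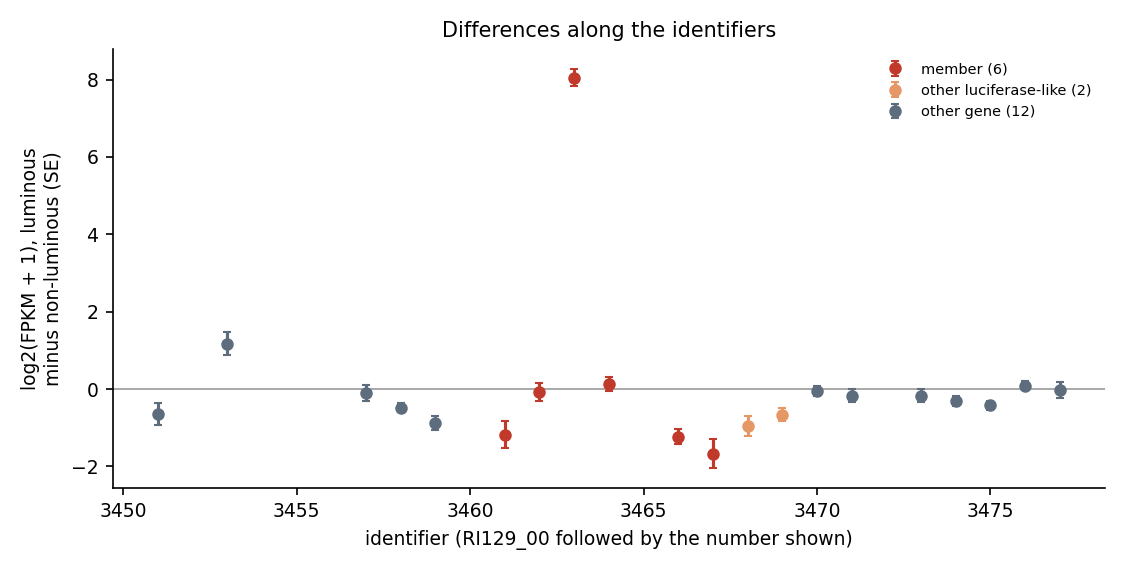
Log2(FPKM + 1) difference, luminous minus non-luminous, with its SE from limma, for the 20 tested genes with identifiers RI129_003451 to RI129_003477, in identifier order. RI129_003463 lies at 8.05, while the other 19 lie between -1.67 and 1.17.

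Among all 31 luciferase-like genes, RI129_003463 was the second most abundant in the luminous organ by mean FPKM. It held 48.3%, 37.9% and 26.9% of their summed FPKM in luminous replicates 1, 2 and 3, and between 0.0513% and 0.0957% in the non-luminous libraries. The gene above it, RI129_011075, was abundant in either organ, at 502 ± 135 and 333 ± 23.2 FPKM (SD, n = 3), and was not called (limma adjusted p = 0.0623, range 0.036 to 0.186). In luminous replicate 1 RI129_003463 was the higher of both, at 532 against 416 FPKM, and in luminous replicates 2 and 3 it was the lower, at 374 against 433 and 292 against 658 FPKM. The recovered length of RI129_011075 was 885 bases, against 1647 for RI129_003463. In reads, RI129_003463 had 17545, 12588 and 9111 in luminous replicates 1, 2 and 3, and RI129_011075 had 7384, 7828 and 11027.

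The filter left 15 of the 25 luciferase-like genes outside the chosen 6, of which 9 were lower, 1 higher and 5 not called, with a median log2 difference of -0.95. Over all genes tested 17.0% were lower and 9.63% higher, with a median of -0.09. The filter takes the mean over both organs, so a gene can pass it through the organ where it is high. Among the lower genes, RI129_000151, RI129_009591 and RI129_010672 had luminous means of 0.834, 0.712 and 0.542 FPKM. Their non-luminous means were 5.48, 3.25 and 5.05 FPKM. RI129_011076, beside RI129_011075, fell from 43.2 ± 16.6 to 6.095 ± 1.498 FPKM (SD, n = 3). RI129_010673 fell by 1.92, RI129_000151 fell by 1.90 and RI129_010739 fell by 1.74 on the log2 scale. These 4 had limma adjusted p of 0.00277, 0.00212, 0.011 and 0.0239. Their recovered lengths were 6036, 1566, 4080 and 555 bases in the same order. Whether each model is a single whole gene was not tested. RI129_011128 was the one called higher, from 35.6 ± 8.39 to 53.5 ± 3.45 FPKM (SD, n = 3; limma adjusted p = 0.0491), and that call was lost under 10 of 15 alternatives. Leaving out luminous replicate 3 gave 4 lower genes, and leaving out non-luminous replicates 1, 2 and 3 in turn gave 4, 5 and 3, and the number higher was 0 without any library but luminous replicate 1. The call of RI129_010739 was lost without those same 4 libraries (range of adjusted p 0.00314 to 0.0899). The 25 include RI129_003468 and RI129_003469 of the run.

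**Figure D4:**
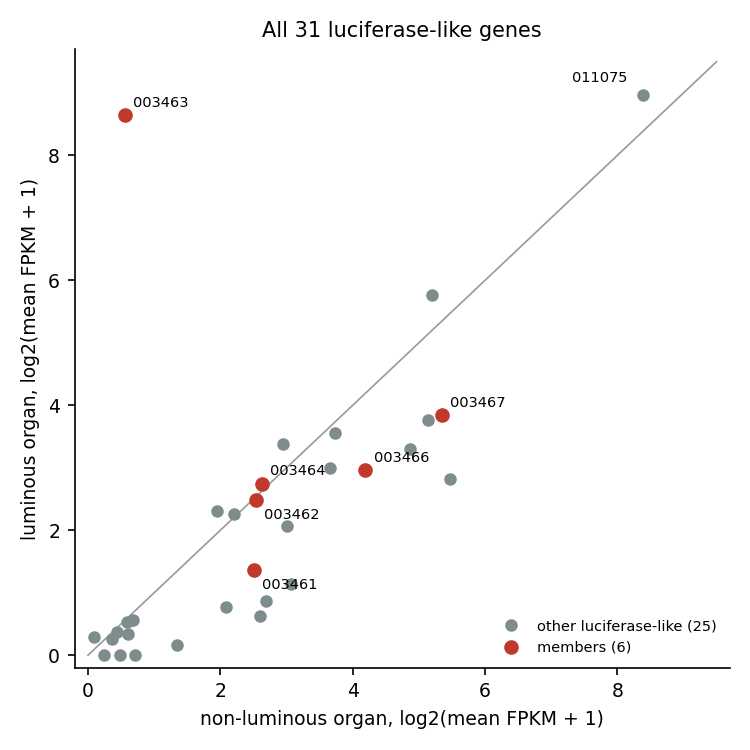
Mean FPKM of 3 libraries plus 1, on a log2 scale, in the luminous organ against the non-luminous organ for all 31 luciferase-like genes, the 6 chosen genes in red and labelled, with the line of equal values. RI129_003463 lies far above the line at 399 against 0.474 FPKM, RI129_011075 lies at the top right, and RI129_003461, RI129_003466 and RI129_003467 lie below the line.

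The genes with profiles most like that of RI129_003463 over the 6 libraries were sought by the root mean square difference of log2(FPKM + 1) values, each profile centred on its own mean. The nearest was hsdl2 (RI129_001276), a gene of the hydroxysteroid dehydrogenase-like family, at 0.272. It stood at 343, 193 and 123 FPKM in the luminous libraries, in the same order as RI129_003463, and was listed at 0 in all non-luminous libraries. The next were serhl (RI129_008074), a serine hydrolase-like gene, at 1.20, RI129_002442, which has no description, at 1.31, the fatty acid-binding protein gene RI129_001902 at 1.43, and PAPSS2 (RI129_010993), which makes the sulfate donor for sulfotransferases, at 1.66. RI129_002442 stood at 159, 342 and 756 FPKM in the luminous libraries, the reverse order of RI129_003463. Every other chosen gene was farther from RI129_003463, at 3.97 to 4.89. These distances mainly reflect the size of the difference between organs.

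The other 5 genes were not one another's nearest profiles. RI129_003464 was at rank 573 of 9862 genes from RI129_003462, at 0.176. Among the 3 genes lower in the luminous libraries, RI129_003466 was at rank 327 from RI129_003461, at 0.309, and RI129_003461 was at rank 359 from RI129_003467, at 0.370. RI129_003468 of the same run was nearer to 2 of these 3, at rank 82 from RI129_003461 (0.220) and rank 122 from RI129_003466 (0.196). From RI129_003467 it was farther than either, at rank 583 (0.473), against rank 526 (0.453) for RI129_003466. Nearest to RI129_003467 were CREG1 (RI129_000527), at 0.0732, and RI129_008340, which has no description. For RI129_003461 they were an esterase FE4 gene (RI129_005463) and speck (RI129_007199), an arylalkylamine N-acetyltransferase. For RI129_003466 they were vCaE (RI129_005355), a carboxylic ester hydrolase, and Gapdh1 (RI129_010299), for RI129_003462 RIOK1 (RI129_007398) and Ddx17 (RI129_008314), and for RI129_003464 Eya4 (RI129_002127) and PTPN14 (RI129_001605).

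Other acyl-CoA ligases, the enzyme relatives of luciferase, went both ways. Of 32 genes 31 were tested, 6 higher, 8 lower and 17 not called, with a median log2 difference of -0.40. The shares over all genes tested were 9.63% higher and 17.0% lower, with a median of -0.09. The gene 4cl1 RI129_007505, described as a 4-coumarate-CoA ligase, had 44.5 ± 16.1 luminous and 12.8 ± 4.202 non-luminous FPKM (SD, n = 3), and rose by 1.71 on the log2 scale (SE 0.30, limma adjusted p = 0.00795). 4cl3 RI129_007365 rose by 1.35, while 4cl3 RI129_007575 fell from 35.3 ± 7.28 to 8.06 ± 1.34 FPKM and 4cl1 RI129_007574 fell by 1.67 (limma adjusted p = 0.0208, 0.00133 and 0.0226). The most abundant, ACSL3 (RI129_004204), which activates long-chain fatty acids, stood at 177 ± 6.26 and 236 ± 38.6 FPKM, and Acsl6 (RI129_010010) at 101 ± 17.3 and 73.4 ± 4.63 FPKM (SD, n = 3), and neither was called (range of adjusted p over the alternatives 0.0344 to 0.229 and 0.0255 to 0.19). Leaving out luminous replicate 3 gave 8 calls, and leaving out non-luminous replicates 1, 2 and 3 in turn gave 6, 9 and 5. The call of RI129_007574 was lost without each of these 4 and that of RI129_007365 without 3 of them and with the replicate number as a block, with highest adjusted p of 0.08 and 0.0787.

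Peroxins build peroxisomes and bring luciferase into them. All 15 were tested and 2 were called, both lower, with a median log2 difference of -0.06. Among all genes tested, 17.0% were called lower and the median was -0.09, so this count is no more than the background share. PEX13 (RI129_003542), a docking protein of the peroxisome membrane, fell from 185 ± 13.5 to 114 ± 26.6 FPKM (SD, n = 3; limma adjusted p = 0.0209). PEX5 (RI129_006075), the receptor for the targeting signal that luciferase carries, stood at 109 ± 7.97 and 109 ± 5.77 FPKM (SD, n = 3). Leaving out luminous replicate 3, or non-luminous replicate 2 or 3, ended the call of PEX13 (highest adjusted p 0.08).

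Genes that handle luciferin or CoA esters include 22 sulfotransferases, of which 18 were tested, 1 higher and 11 lower. Of 35 genes 31 were tested, 4 higher, 13 lower and 14 not called, with a median log2 difference of -0.76. For all genes tested the shares were 9.63% higher and 17.0% lower, and the median was -0.09. PAPSS2 was at 156, 95.3 and 34.7 FPKM in the luminous libraries and at 2.18, 1.48 and 1.86 FPKM in the non-luminous ones, a luminous order equal to that of RI129_003463. The luciferin sulfotransferase gene LST RI129_005665, whose family converts luciferin to its storage form sulfoluciferin, was at 32.2, 73.8 and 61.2 FPKM in the luminous libraries and between 2.11 and 4.34 FPKM in the others. LST RI129_003358 and LST RI129_009180 fell by 3.15 and 3.13 on the log2 scale. Adjusted p was 0.00132, 0.000856, 0.00457 and 0.00084 for these 4 genes in limma, each called under all alternatives run. Rgn RI129_004385, a regucalcin gene of the family of luciferin-regenerating enzyme, fell from 240 ± 32.3 to 84.3 ± 24.7 FPKM (SD, n = 3; limma adjusted p = 0.00482). RGN RI129_001306 was not called: luminous replicate 1 had 241 FPKM, and luminous replicates 2 and 3 had 9.09 and 3.28 FPKM (limma adjusted p = 0.721, and 0.0196 without that library). Calls numbered 11 without non-luminous replicate 2 and 9 without non-luminous replicate 3.

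Depth was similar throughout, with library totals of 18.04 to 20.42 M reads (M for mega). Across genes, Pearson's r on the log2 scale was 0.979 to 0.981 between non-luminous libraries. Luminous replicates 2 and 3 had r of 0.974 with each other, and 0.949 and 0.948 with replicate 1. Limma called 950 genes higher and 1676 lower. The split moved with scaling. Of all calls, 36.2% were higher on the deposited scale, 46.3% with median-of-ratios factors and 52.8% with quantile normalization, under which the median log2 difference over all genes went from -0.095 to 0.068.

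Summed FPKM of muscle, gut, nerve and fat body markers did not overlap between the organs, while that of cuticle markers did. Of all genes tested, 9.63% were called higher and 17.0% lower. The median log2 difference of nerve markers was -0.07, against -0.09 over all genes tested. Muscle markers (11 genes, 6 higher and 1 lower, none at 0 in either organ) summed to 20952 to 22046 FPKM in the luminous libraries and 8221 to 10441 FPKM in the non-luminous libraries. Gut markers (87 genes, 48 tested, 2 higher, 24 lower, 17 at 0 in every luminous library) summed to 1571 to 2691 and 5973 to 7623 FPKM. Nerve markers (32 genes, 26 tested, 3 higher and 4 lower, 2 at 0 in every luminous library) summed to 1456 to 1767 and 910 to 1079 FPKM, and cuticle markers (29 genes, 14 tested, 4 higher and 1 lower, 3 at 0 in every non-luminous library) to 148 to 217 and 102 to 244 FPKM. Fat body markers (5 genes, 4 tested, 1 higher and 3 lower, none at 0) summed to 171, 309 and 189 FPKM in luminous replicates 1, 2 and 3 and to 363 to 379 FPKM in the non-luminous libraries. The 3 called lower were apolipophorin genes, and the untested gene was a putative vitellogenin receptor. The gene called higher was a hexamerin, at 64.0, 65.5 and 33.8 FPKM in luminous replicates 1, 2 and 3. In the non-luminous libraries it stood at 12.6, 14.5 and 18.3 FPKM. Luminous replicate 2 was the highest luminous library for the fat body sum, as for RI129_003461, RI129_003466 and RI129_003467. Among luminous libraries it had the lowest gut, muscle and cuticle sums, at 1571, 20952 and 148 FPKM. The gut sums of luminous replicates 1 and 3 were 2691 and 1813 FPKM. The nerve sum was lowest in luminous replicate 1, at 1456 FPKM. Luminous replicate 2 was also the highest luminous library for 60.1% of the 1676 genes called lower and for 34.4% of all genes tested. The part of these tissues in the values of the 6 genes was not tested. In bulk tissue, fewer cells of a type and less RNA per cell cannot be told apart.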

How the data were processed

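The authors deposited 1 table of FPKM values for 12533 genes and 6 libraries, with descriptions. Per the labels' protocols, Trizol was used for extraction and a stranded kit for mRNA libraries. Named without roles in the submitters' processing notes are HTSeq, HISAT2, Trimmomatic and R 3.2.0. Genome build, annotation, strand setting and filters, not given in the sources used here, remain unknown.

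Low FPKM values of a gene are whole multiples of the value of 1 read. From these steps reads, library totals and gene lengths were recovered for 99.50% of 11795 genes above 0 in at least 3 libraries (tolerance 0.05 of a read). The steps fix only length times total. Lengths were taken as multiples of 3 bases, and all 6 totals then came out within 0.010 of a whole number. The procedure was tested on simulated data.

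Values were analysed as log2(FPKM + 1), which understates changes of low genes, in R 4.3.3 with limma 3.58.1 (intensity trend, two-sided, no block). Testing covered the 9863 genes averaging at least 1 FPKM over all libraries. Calls were made at a Benjamini-Hochberg adjusted p under 0.05 over all of these genes. Alternatives were other pseudocounts (0.1 and 5), filters (none and 5 FPKM), rescalings, no trend, a replicate block, voom on recovered reads and each library left out. Lists matched words in descriptions. From each list the text names the 4 largest called differences without overlap and the 2 most abundant genes, and it names the called flanking genes and the 5 profiles nearest to RI129_003463 (2 for the other members). The members and the lists were chosen with earlier results of these data known. One gene that this rule names is not reported here.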

Additional observations from a re-analysis of the deposited data

How the results depend on the processing

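The direction of RI129_003463, RI129_003461, RI129_003466, RI129_003467 and RI129_003464 was kept under the other pseudocounts, both rescalings, voom and each library left out. The other filters, no trend and the replicate block cannot change these differences. The filter of 5 FPKM leaves RI129_003461 out. The log2 difference of RI129_003463 was 9.43 with a pseudocount of 0.1, 6.16 with a pseudocount of 5 and 9.67 in voom on recovered reads. With a pseudocount of 5 that of RI129_003461 was -0.56 and that of RI129_003466 was -0.92, voom gave -1.69 for RI129_003461, and quantile normalization gave 0.37 for RI129_003464. With 1 library left out, the differences ranged from -1.47 to -0.95 for RI129_003461, -0.30 to 0.07 for RI129_003462, 7.82 to 8.25 for RI129_003463, 0.02 to 0.19 for RI129_003464, -1.34 to -1.11 for RI129_003466 and -2.14 to -1.40 for RI129_003467. Calls with 1 library left out ranged from 1096 to 2665 for all genes, against 2626, from 3 to 9 for luciferase-like genes outside the 6, against 10, from 5 to 16 for other acyl-CoA ligases, against 14, from 0 to 2 for peroxins, from 9 to 18 for luciferin and CoA handling, against 17, and from 0 to 5 for flanking genes, against 6. All-gene calls numbered 2665, 2621 and 1605 without luminous replicates 1, 2 and 3 in turn. Without non-luminous replicates 1, 2 and 3 in turn they numbered 1509, 1573 and 1096. The cause of these differences was not tested. A minimum of 5 FPKM gave 6 called luciferase-like and 11 called luciferin and CoA handling genes, with fewer tested, and quantile normalization gave 3 called flanking genes, the cause of which was not tested.

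The replicate numbers are not known to pair libraries: deviations from the organ means correlated at -0.11, -0.01 and -0.17 for same-numbered libraries. With the number as a replicate block, 1996 genes were called in all, with 6 luciferase-like genes, 9 other acyl-CoA ligases, 1 peroxin and 1 flanking gene. The count of reads limits RI129_003463 in the non-luminous organ and RI129_003461 in the luminous organ. The handling of reads shared by similar copies was not tested.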
